A study of Mus musculus with 12 samples.

Results

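Chromatin accessibility at 38 cell cycle and proliferation genes was followed in macrophages sorted from mouse brain tumours. The genes were chosen by name, from G1 cyclins to mitotic kinases, and the level of a gene was the sum of ATAC-seq counts over the regions that overlap its span in mm10 or the 5 kb on either side. ATAC-seq uses the Tn5 transposase, which inserts sequencing adapters into open DNA, so that counts in a region measure how accessible its chromatin is. Of the 38 genes, 37 had at least 1 region, among 16304 protein-coding genes with a region in all, and all 37 passed the filter on low counts. Rrm2, a subunit of ribonucleotide reductase, had none. The 37 genes held 232 of the 117835 regions, from 1 to 46 regions per gene.

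The 4 groups of 3 libraries each were lipid-laden microglia (LL-MG), lipid-laden monocyte-derived macrophages (LL-MDM), microglia without lipid load (MG) and monocyte-derived macrophages without lipid load (MDM). All 12 libraries came from tumours driven by PDGFB in Nestin-positive progenitor cells of mice with the Ink4a/Arf knockout, so every group, those without lipid load included, carried a loss of Cdkn2a, itself a brake on the cell cycle. No library from a mouse with intact Cdkn2a or without a tumour was analysed here. Groups were taken from the column names of the count table. The sample titles name the same group for 4 libraries and another group for 8, and the conflict cannot be settled from the labels. With the libraries grouped by title, none of the 32 called differences described below kept its call in the same direction, 13 changed sign, and 0% of all genes were called in either contrast between lineages. No library was tied to an animal, so each p-value reflects spread among libraries, part of which may be technical.

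Cells enter division through the D-type cyclins with CDK4 and CDK6, which phosphorylate the retinoblastoma protein Rb1 and release the E2F factors. E2F factors then raise the genes of DNA replication, and the MuvB complex with B-MYB and FOXM1 raises the genes of G2 and mitosis. The inhibitors p21 (Cdkn1a) and p27 (Cdkn1b) hold the kinases back. Microglia renew themselves by division within the brain, and monocyte-derived macrophages come from dividing precursors in the bone marrow. The promoters of many cell cycle genes are open in resting cells too, so that accessibility is not a measure of division.

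The start windows of the genes, 250 bases before to 50 after each annotated start (RefSeq, GRCm38.p6), were read for 3 short motifs on both strands. The motifs were the CCAAT box bound by NF-Y, the letters TTTGAA of the cell cycle homology region bound by MuvB, and the E2F site, read as TTCCCGC, with TTGGCGC as a variant, the form TTCGCGC as well, and lastly the form TTGCCGC. On the reverse strand the CCAAT box shares letters with TTGGCGC, and TTCGCGC can overlap its own reverse. A window was given for 31 of the 38 genes, 35 windows in all, and none was given for Ccne2, Ccnd1, Rb1, Ccna2, Ccnd2, Mcm4 and Aurkb. The 6 windows below are shown because the results below turn on them, with the motif letters in capitals, written 5′ to 3′ on the strand of the gene.
Mki67 (chr7:135716330-135716629, minus strand): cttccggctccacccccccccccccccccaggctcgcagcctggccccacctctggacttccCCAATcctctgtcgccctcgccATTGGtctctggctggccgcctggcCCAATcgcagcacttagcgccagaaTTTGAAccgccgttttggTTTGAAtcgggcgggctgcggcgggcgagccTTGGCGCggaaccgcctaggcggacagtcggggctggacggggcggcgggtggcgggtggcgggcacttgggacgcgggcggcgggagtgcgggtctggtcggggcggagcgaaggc
Top2a (chr11:99024140-99024439, minus strand): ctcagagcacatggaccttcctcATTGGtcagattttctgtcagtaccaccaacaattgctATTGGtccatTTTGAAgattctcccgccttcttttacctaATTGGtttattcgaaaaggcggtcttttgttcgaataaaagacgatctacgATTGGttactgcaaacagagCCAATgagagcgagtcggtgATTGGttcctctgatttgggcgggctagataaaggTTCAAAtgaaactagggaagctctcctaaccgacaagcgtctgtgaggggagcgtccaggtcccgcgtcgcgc
Mcm5 (chr8:75109259-75109558, plus strand): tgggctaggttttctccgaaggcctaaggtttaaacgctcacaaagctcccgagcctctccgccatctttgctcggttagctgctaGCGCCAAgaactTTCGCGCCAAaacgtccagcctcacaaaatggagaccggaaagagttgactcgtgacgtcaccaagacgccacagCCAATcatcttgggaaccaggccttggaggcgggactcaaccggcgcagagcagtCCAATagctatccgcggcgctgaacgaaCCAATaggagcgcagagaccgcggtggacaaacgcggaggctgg
Cdkn1b (chr6:134920151-134920450, plus strand): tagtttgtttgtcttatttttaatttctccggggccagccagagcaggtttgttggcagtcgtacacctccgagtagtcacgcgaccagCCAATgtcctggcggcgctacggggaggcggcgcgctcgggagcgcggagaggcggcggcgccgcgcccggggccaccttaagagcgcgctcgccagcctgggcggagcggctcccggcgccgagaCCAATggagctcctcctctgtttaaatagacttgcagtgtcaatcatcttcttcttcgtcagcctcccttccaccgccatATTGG
Cdk6 (chr5:3343643-3343942, plus strand): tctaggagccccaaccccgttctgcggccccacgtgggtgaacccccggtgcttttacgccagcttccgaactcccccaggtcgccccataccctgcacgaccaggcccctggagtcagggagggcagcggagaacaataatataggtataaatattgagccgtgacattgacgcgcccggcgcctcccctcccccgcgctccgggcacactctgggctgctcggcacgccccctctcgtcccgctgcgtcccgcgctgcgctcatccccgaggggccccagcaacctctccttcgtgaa
Ccnd3 (chr17:47504801-47505100, plus strand): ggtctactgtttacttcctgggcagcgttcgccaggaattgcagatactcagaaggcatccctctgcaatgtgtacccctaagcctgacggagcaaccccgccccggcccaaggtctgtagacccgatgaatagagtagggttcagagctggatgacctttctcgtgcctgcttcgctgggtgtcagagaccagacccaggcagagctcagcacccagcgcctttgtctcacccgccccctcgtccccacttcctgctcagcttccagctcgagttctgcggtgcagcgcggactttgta

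CCAAT stood in 25 of the 35 windows (71.4%), against 38.5% of the 21045 windows of all protein-coding genes. It stood in 11 of 12 windows of G2 and mitosis genes and in 9 of 10 windows of replication genes, and Top2a alone held 6 copies. TTTGAA stood in 8 of the 12 windows of G2 and mitosis genes and in 1 of the 10 of replication genes, against 15.6% of all windows. An E2F form stood in 7 of the 10 windows of replication genes and in 3 of the 12 of G2 and mitosis genes, against 12.2% of all windows. The windows of Cdk6, Cdk4, Ccne1, E2f1, Birc5 and Tyms, both windows of Cdkn1a and the first start of Ccnd3 held none of the letters searched. The window given for E2f1, on the minus strand at chr2:154569377-154569676, lies inside the gene span, which reaches to 154569892. Sequence before that end of E2f1 was not read, so the window does not show whether the letters stand there. These are matches of letters, not mapped sites.

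Region totals ranged from 1162969 counts in LL-MDM library 1 to 18938222 in MDM library 2, and the thinnest member, Plk1, had 11 counts in the smallest library. Levels of loci are given as CPM, counts scaled to the total of the locus counts of the library. Of the microglial identity genes, summed over 9 loci, LL-MG libraries had 613 to 671 CPM, LL-MDM 392 to 418, MG 389 to 622 and MDM 329 to 350. Tmem119, a microglial marker, went against the labels within the lipid-laden pair, with 52.1 to 58.0 CPM in LL-MG and 66.4 to 77.9 CPM in LL-MDM. It was the only 1 of the 9 that was lower in LL-MG, and 8 were higher, called or not. Sall1 had 63.4 to 84.9 CPM in LL-MG and 5.93 to 11.5 CPM in LL-MDM. Without lipid load it had 37.7 to 71.3 CPM in MG and 0.471 to 1.02 CPM in MDM. Monocyte-derived macrophage loci summed to 297 to 328 CPM in LL-MG, 421 to 453 in LL-MDM, 281 to 333 in MG and 678 to 729 in MDM. MG libraries 2 and 3 stood apart from MG library 1 at Ccr2, the monocyte chemokine receptor, with 40.5 and 27.1 CPM against 9.85 CPM. MDM libraries had 21.8 to 26.3 CPM there. At P2ry12, a microglial gene, they had 49.1 and 79.8 CPM in MG libraries 2 and 3 against 99.9 CPM in library 1. At H2-Aa all MG libraries had 20.3 to 29.9 CPM, against 196 to 206 CPM in MDM. Calls with MG are also given without MG libraries 2 and 3 where that ended the call or moved the value by over 1.5 times. That leaves MG with 1 library, assumed to vary like the other groups, so that a call lost in this way also reflects the smaller group. Loci of tumour and oligodendrocyte progenitor cells, of which 8 of 10 had a region, summed to 139 to 156 CPM in LL-MG, 50 to 67.7 in LL-MDM, 78.9 to 116 in MG and 51.8 to 66.6 in MDM. Astrocyte loci summed to 217 to 234 CPM in LL-MG and to 142 to 187 CPM over the other groups, and dendritic cell loci to 499 to 599 CPM in the other groups and 678 to 742 CPM in MDM. Sox2 and Sox10 were at 0 in LL-MDM library 1. Oligodendrocyte loci summed to 351 to 387 CPM in the other groups and 439 to 460.0 CPM in MDM, and endothelial loci to 207 to 253 CPM in the other groups and 260.0 to 291 CPM in MDM. Sums of progenitor and astrocyte loci were thus highest in LL-MG, and sums of dendritic cell, oligodendrocyte and endothelial loci in MDM. Their part in the results was not tested. The loci of a list did not all move together. By the locus test below, Flt3, Ccr7, Mbp and Pecam1 were lower in MG than in MDM (log2 -1.57, -2.72, -0.45 and -0.83). Itgae, Mag and Flt1 were higher (0.34, 0.98 and 0.41). The other tested loci of the dendritic cell, oligodendrocyte and endothelial lists were not called. Among astrocyte loci only Slc1a3 passed in LL-MG against LL-MDM (2.15). Of the progenitor loci, Cspg4, Nes and Sox2 were higher in MG than in MDM (1.12, 0.84 and 3.16). Olig2 was lower there (-1.15, or -0.27 without MG libraries 2 and 3). In LL-MG against LL-MDM 5 of 8 were higher, Cspg4, Nes, Sox2, Pdgfra and Dll3 (1.58, 1.23, 2.54, 0.84 and 0.94). Olig1, Olig2 and Sox10 were not called there. Cspg4 had 50.2 to 59.4 CPM and Nes 44.3 to 49.4 CPM in LL-MG. In bulk libraries a change in the mix of cells and a change in accessibility per cell cannot be told apart.

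Between the lineages without lipid load, 7 of 37 cell cycle loci passed the test in MG against MDM (18.9%, against 41.0% of all genes tested). A locus passed when its Benjamini-Hochberg adjusted p, over all 15552 genes in edgeR's quasi-likelihood test, was under 0.05. Cdk4 and Cdk6 were higher in MG, and Mki67, Bub1, Cdkn1b, E2f2 and Rb1 were lower. Of all genes 19.8% were higher and 21.2% lower. Between the lipid-laden lineages, 6 of 37 passed in LL-MG against LL-MDM (16.2%, against 20.3%), with Ccnd1, Aurkb and Cdk6 higher and Rrm1, Mki67 and Cdkn1b lower. Of all genes 12.0% were higher and 8.31% lower. With lipid load in MDM, 9 of 37 passed in LL-MDM against MDM (24.3%, against 23.8%), and all 9 were lower, against 11.7% of all genes higher and 12.2% lower. With lipid load in microglia, 9 of 37 passed in LL-MG against MG (24.3%, against 18.3%), with Ccnd1 and Mki67 higher and the other 7 lower. Of all genes 10.3% were higher and 7.98% lower. In either direction the shares lay under those of all genes in both lineage contrasts and near them or above in both lipid-load contrasts. Of the 37, 16 passed in at least 1 of the 4 comparisons and 21 in none. The medians over the 37 log2 fold changes were -0.06, -0.07, -0.11 and -0.09 in the order above, against -0.00, -0.01, -0.00 and 0.03 over all genes.

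**Figure D1:**
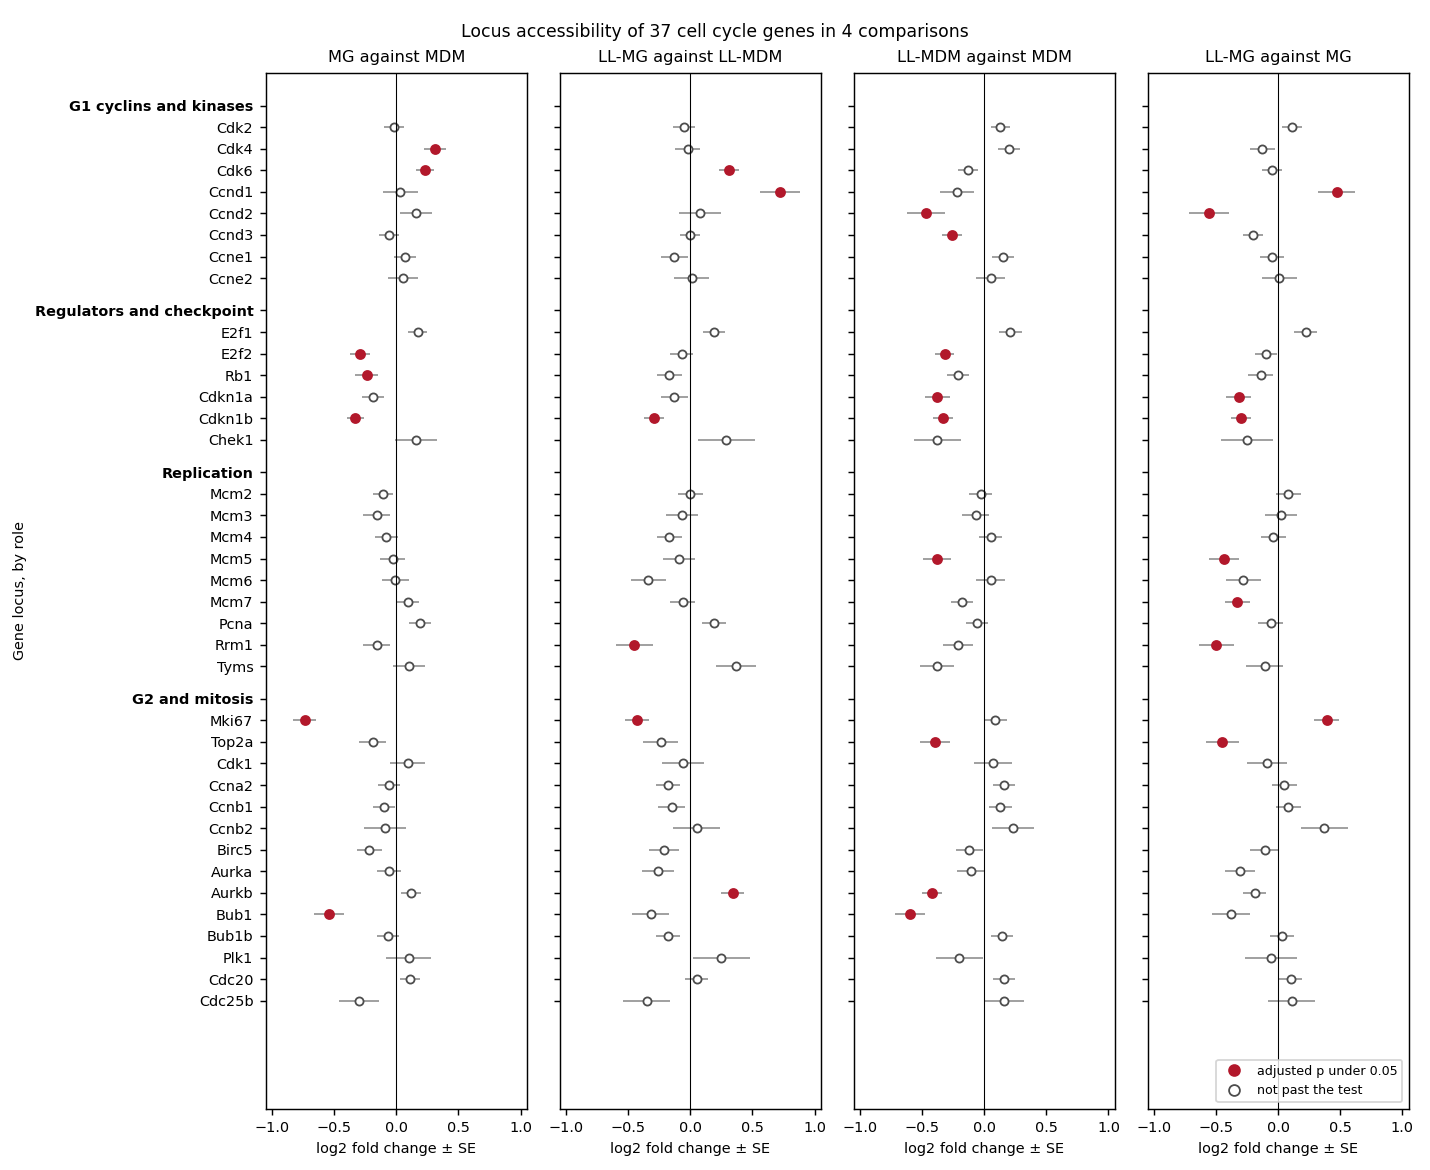
Log2 fold change with its standard error (x axis) of each of the 37 loci, by role (y axis), in the 4 comparisons, with filled points for adjusted p under 0.05. Most points lie between -0.5 and 0.5, Mki67 is lowest in MG against MDM at -0.74 and Ccnd1 is highest in LL-MG against LL-MDM at 0.72.

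The number of loci called moved by over 1.5 times with single libraries. In MG against MDM it was 12 without MG library 1. In LL-MG against LL-MDM it was 3 without LL-MG library 2 and 3 without LL-MDM library 3. In LL-MDM against MDM it was 5 without LL-MDM library 2, 4 without LL-MDM library 3 and 5 without MDM library 1. In LL-MG against MG it was 1, 4 and 2 without LL-MG libraries 1, 2 and 3, and 3 and 2 without MG libraries 2 and 3. Without both MG libraries 2 and 3 no locus was called in LL-MG against MG by edgeR, with 4 at an unadjusted p under 0.05, and of all genes 0.103% were called.

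Of the 8 G1 cyclins and kinases, 2 were higher in MG against MDM and 2 in LL-MG against LL-MDM, 2 were lower in LL-MDM against MDM, and 1 was higher and 1 lower in LL-MG against MG. Of all genes 19.8% and 12.0% were higher in the 2 lineage contrasts, 12.2% lower in LL-MDM against MDM, and 10.3% higher and 7.98% lower in LL-MG against MG. Cdk6 (chr5:3341004-3531008), a kinase partner of the D-type cyclins, was higher in microglia under both lipid states. It had 490.0, 529 and 534 CPM in LL-MG, 420.0, 426 and 409 CPM in LL-MDM, 533, 527 and 542 CPM in MG and 464, 425 and 480.0 CPM in MDM. Every microglial library lay above every MDM library of the same lipid state. The log2 fold change was 0.31 ± 0.08 (SE; edgeR adjusted p = 0.00636) in LL-MG against LL-MDM and 0.23 ± 0.07 (edgeR adjusted p = 0.0172) in MG against MDM. The second of these calls was lost without MG library 3 and without MDM library 2 (edgeR adjusted p 0.0642 and 0.0952). Without MG libraries 2 and 3 together its adjusted p was 0.0662, and with all libraries thinned to the smallest total the value was 0.13 (edgeR adjusted p = 0.279). Cdk4, the other kinase of the D-type cyclins, had 107, 88.5 and 105 CPM in MG and 77.7, 75.7 and 88.7 CPM in MDM, where MG library 2 lay just below MDM library 3. It was higher in MG by 0.31 ± 0.09 (edgeR adjusted p = 0.00744), and its log2 fold change in LL-MG against LL-MDM was -0.02 ± 0.10. All regions of Cdk4 are shared with neighbouring genes, so its counts cannot be assigned to it alone.

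Cdk6 also shows that a locus sum can hold opposite changes. Of its 39 tested regions, 20 were higher and 5 lower in MG against MDM. A region within the gene span at chr5:3488453-3488572 had 6.49, 7.19 and 7.28 CPM in LL-MG, 1.69, 0.798 and 1.31 CPM in LL-MDM, 4.96, 11.6 and 6.30 CPM in MG and 0.489, 0.415 and 0.653 CPM in MDM. It was called as a peak in LL-MG and MG alone, and the microglial and MDM libraries do not overlap. Its log2 fold change was 4.01 ± 0.35 (edgeR adjusted p = 3.67e-11) in MG against MDM and 2.73 ± 0.45 (edgeR adjusted p = 3.71e-05) in LL-MG against LL-MDM. Another region within the gene span, at chr5:3509556-3509799, was lower in MG than in MDM by 1.51 on the log2 scale (-1.51 ± 0.25, edgeR adjusted p = 6.53e-06), or -0.85 without MG libraries 2 and 3 (edgeR adjusted p = 0.0538). The region over the start, whose window is shown above, had 57.1, 54.8 and 56.5 CPM in LL-MG, 33.0, 33.5 and 36.3 CPM in LL-MDM, 52.8, 60.8 and 56.7 CPM in MG and 40.8, 35.9 and 39.0 CPM in MDM. It was higher by 0.71 ± 0.13 in LL-MG against LL-MDM (edgeR adjusted p = 0.000205) and by 0.56 ± 0.12 in MG against MDM (edgeR adjusted p = 0.000112). The annotation used gives gene spans without exons, so whether a region is exonic or intronic is not known here.

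The D-type cyclins differed from one another. Ccnd1 (chr7:144929931-144939831) had 93.1, 89.0 and 87.3 CPM in LL-MG, 49.2, 57.3 and 53.4 CPM in LL-MDM, 82.6, 50.1 and 67.2 CPM in MG and 69.9, 65.8 and 53.4 CPM in MDM. All LL-MG libraries lay above those of the other groups, while MG and MDM overlapped. It was higher in LL-MG than in LL-MDM by 0.72 ± 0.16 (edgeR adjusted p = 0.00365). Against MG, LL-MG was higher by 0.47 ± 0.15 (edgeR adjusted p = 0.0389), a call lost without any 1 of LL-MG libraries 1, 2 and 3, LL-MDM libraries 1, 2 and 3, MG libraries 2 and 3 or MDM library 2 (edgeR adjusted p 0.0521 to 0.134), and 0.12 without MG libraries 2 and 3 together. It was also lost with the gene span alone (0.19, edgeR adjusted p = 0.417), with scaling by total counts (0.44, edgeR adjusted p = 0.0623) and with thinning (0.28, edgeR adjusted p = 0.278). In LL-MDM against MDM the value was -0.22 ± 0.14 (edgeR adjusted p = 0.285). The sum of the progenitor loci was likewise highest in LL-MG, and Ccnd1 was not tested apart from them.

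Ccnd2 (chr6:127125162-127152188) was lower with lipid load in both lineages. It had 60.8, 72.1 and 59.7 CPM in LL-MG, 63.1, 60.4 and 59.6 CPM in LL-MDM, 65.2, 117 and 93.0 CPM in MG and 84.8, 84.8 and 81.9 CPM in MDM. The LL-MDM libraries lay below all MDM libraries, whereas MG library 1 lay within the LL-MG range. The log2 fold change was -0.47 ± 0.15 in LL-MDM against MDM (edgeR adjusted p = 0.0322), lost on leaving out any 1 library other than those of MG (edgeR adjusted p 0.0511 to 0.131), with the gene span alone (-0.32, edgeR adjusted p = 0.122) and with thinning (-0.28, edgeR adjusted p = 0.355). Between LL-MG and MG it was -0.56 ± 0.16 (edgeR adjusted p = 0.0266), lost without LL-MG library 1 or 3 or MG library 2 or 3 (edgeR adjusted p 0.0648 to 0.0992), with thinning (-0.49, edgeR adjusted p = 0.0832) and without both of those MG libraries (-0.03).

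Ccnd3 (chr17:47505051-47599689) had 222, 239 and 241 CPM in LL-MDM and 283, 274 and 287 CPM in MDM, with no overlap. It was lower in LL-MDM by 0.26 on the log2 scale (-0.26 ± 0.08, edgeR adjusted p = 0.0190), a call lost without LL-MDM library 1, 2 or 3 or MDM library 1 (edgeR adjusted p 0.0520 to 0.0731) and with thinning (-0.16, edgeR adjusted p = 0.338). With the regions of 1 gene only it was -0.45 (edgeR adjusted p = 0.000854). Its first start region, chr17:47504942-47505220, which also lies at Taf8, moved the other way. There LL-MDM libraries had 17.8, 21.2 and 18.3 CPM, MG had 24.8, 34.4 and 27.1 CPM and MDM had 12.0, 12.1 and 11.9 CPM. It was higher in MG than in MDM by 1.28 ± 0.15 (edgeR adjusted p = 2.21e-08) and in LL-MDM than in MDM by 0.70 (edgeR adjusted p = 0.00150, or 0.0578 without LL-MDM library 2). A further 7 regions of Ccnd3 were lower in LL-MDM than in MDM, among them chr17:47511717-47511836 at -1.94 (edgeR adjusted p = 7.64e-05). Ccne1, Ccne2 and Cdk2, which act at the start of S phase, passed in none of the 4 comparisons, with log2 fold changes from -0.13 to 0.15.

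**Figure D2:**
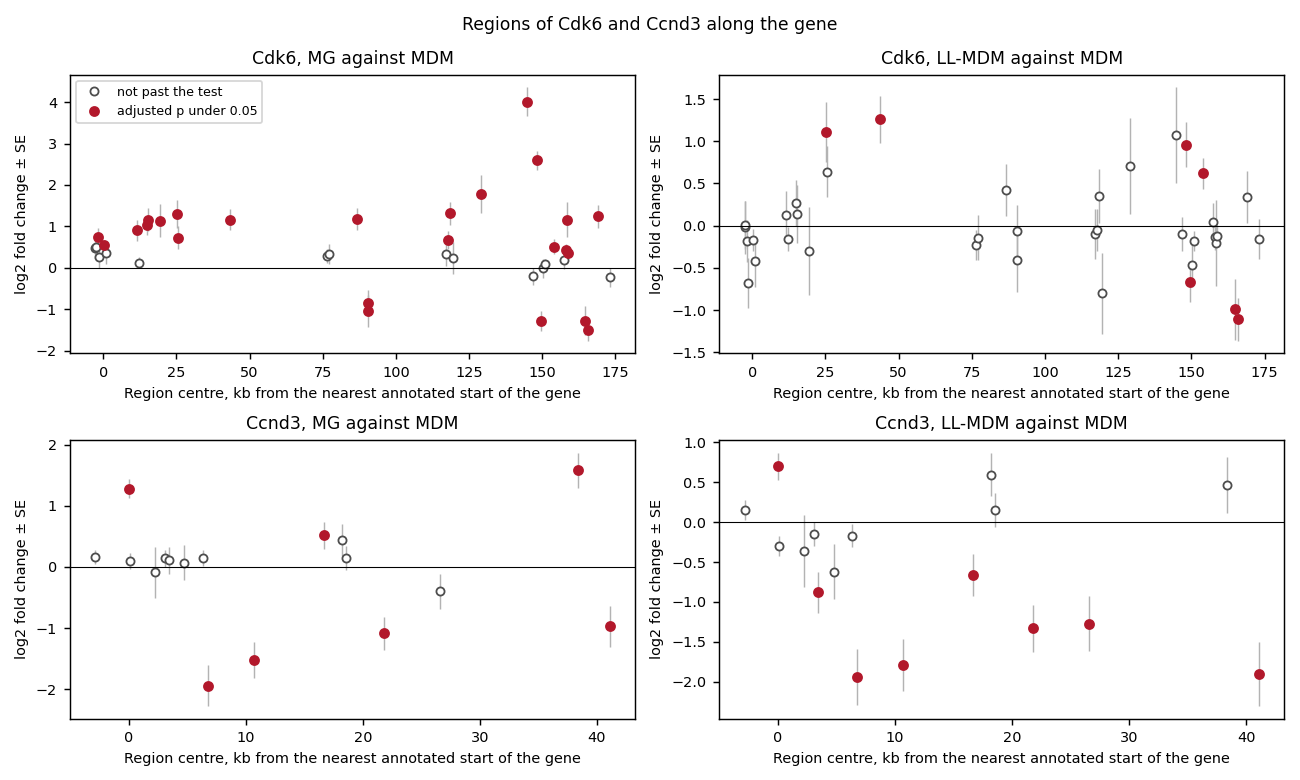
Log2 fold change with its standard error of each tested region of Cdk6 (top) and Ccnd3 (bottom) against its distance from the nearest annotated start of the gene, in MG against MDM (left) and LL-MDM against MDM (right). Filled points have an adjusted p under 0.05, and both genes hold regions that moved up and regions that moved down, from 4.01 to -1.51 in Cdk6 in MG against MDM.

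Of the 6 regulators and checkpoint genes, 3 were lower in MG against MDM, 1 in LL-MG against LL-MDM, 3 in LL-MDM against MDM and 2 in LL-MG against MG. None was higher, against 19.8%, 12.0%, 11.7% and 10.3% of all genes in the same order. Of all genes 21.2%, 8.31%, 12.2% and 7.98% were lower in these comparisons. Cdkn1b (chr6:134920401-134925525), which encodes the kinase inhibitor p27, was lower along every contrast. It had 98.7, 96.3 and 107 CPM in LL-MG, 119, 122 and 128 CPM in LL-MDM, 119, 121 and 131 CPM in MG and 158, 147 and 160.0 CPM in MDM. No pair of groups compared overlapped, and MDM was highest. The log2 fold changes were -0.33 ± 0.07 in MG against MDM (edgeR adjusted p = 0.00111), -0.29 ± 0.08 in LL-MG against LL-MDM (0.0178), -0.33 ± 0.08 in LL-MDM against MDM (0.00320) and -0.30 ± 0.08 in LL-MG against MG (0.0193). Within the gene, chr6:134922873-134923060 was lower in MG than in MDM (-1.57 ± 0.24, edgeR adjusted p = 1.91e-06, or -0.85 and 0.0272 without MG libraries 2 and 3), while the region over the start, whose window is shown above, had a log2 fold change of -0.10 (edgeR adjusted p = 0.503). The comparisons share libraries and are not separate support for each other. The LL-MG against LL-MDM call was lost without LL-MG library 1 or 2 or LL-MDM library 3 (edgeR adjusted p 0.0571 to 0.0752), and the LL-MG against MG call without LL-MG library 1 or 2 or MG library 3 (edgeR adjusted p 0.0530 to 0.0805) and without both MG libraries 2 and 3 (-0.24, edgeR adjusted p = 0.613). With thinning both were lost, at -0.24 (edgeR adjusted p = 0.168) and -0.27 (edgeR adjusted p = 0.146).

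Cdkn1a (chr17:29090979-29100722), which encodes p21, was lower with lipid load. It had 138, 139 and 130 CPM in LL-MG, 139, 152 and 151 CPM in LL-MDM, 147, 191 and 166 CPM in MG and 178, 179 and 224 CPM in MDM. The lipid-laden libraries lay below those without lipid load in both lineages. The log2 fold change was -0.38 ± 0.10 in LL-MDM against MDM (edgeR adjusted p = 0.00822, or 0.0557 with thinning) and -0.32 ± 0.10 in LL-MG against MG (edgeR adjusted p = 0.0364). The second call was lost without LL-MG library 1, 2 or 3, LL-MDM library 2 or MG library 2 or 3 (edgeR adjusted p 0.0503 to 0.193), and was -0.12 without both MG libraries.

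E2f2, one of the activating E2F factors, had 99.1, 83.1 and 91.1 CPM in LL-MG, 94.3, 98.2 and 93.0 CPM in LL-MDM, 87.0, 102 and 103 CPM in MG and 120.0, 115 and 124 CPM in MDM. The MDM libraries lay above all others. It was lower in MG than in MDM by 0.29 on the log2 scale (-0.29 ± 0.08, edgeR adjusted p = 0.00660, or -0.46 without MG libraries 2 and 3 and -0.47 with thinning) and in LL-MDM than in MDM (-0.32 ± 0.08, edgeR adjusted p = 0.00802, or 0.0512 without LL-MDM library 3). Rb1, which restrains the E2F factors, was lower in MG than in MDM (-0.24 ± 0.09, edgeR adjusted p = 0.0388), but its libraries overlapped. The Rb1 call was lost without any 1 of LL-MG libraries 2 and 3, LL-MDM library 3, MG libraries 2 and 3 or MDM libraries 1 and 2 (edgeR adjusted p 0.0551 to 0.162), and the value was -0.06 without both MG libraries. It was also lost with both other scalings, DESeq2, thinning, the gene span alone and regions of 1 gene only (adjusted p 0.0525 to 0.259). E2f1 and the checkpoint kinase Chek1 passed in none of the 4 comparisons.

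**Figure D3:**
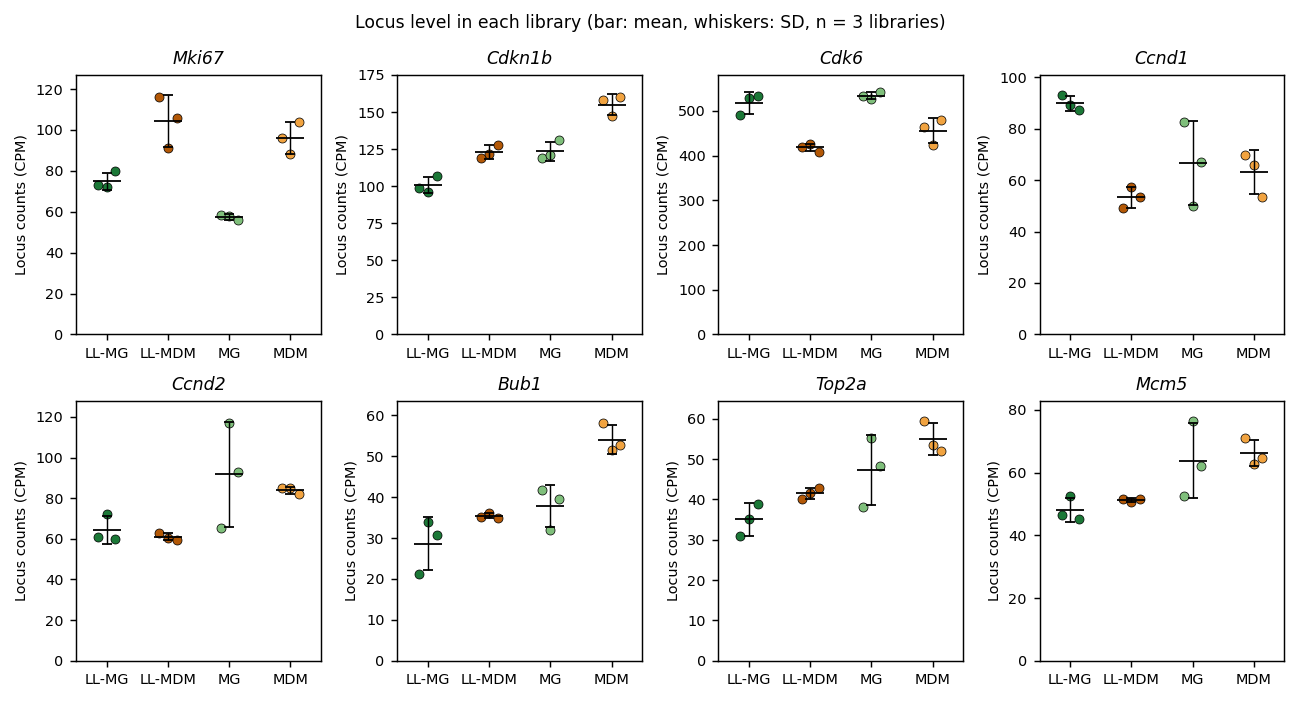
Locus level in CPM of 8 genes (y axis, from 0) in each library of the 4 groups (x axis), with the mean as a bar and the SD as whiskers over 3 libraries. Mki67 is lowest in MG at 55.9 to 58.4 CPM, Ccnd1 is highest in LL-MG, and for Ccnd2, Top2a and Mcm5 MG library 1 lies closer to LL-MG than MG libraries 2 and 3 do.

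The replication genes encode the MCM helicase subunits, the sliding clamp Pcna and the enzymes of nucleotide synthesis. None of the 9 with a region passed in MG against MDM, where 41.0% of all genes did. In LL-MG against LL-MDM 1 was lower, in LL-MDM against MDM 1 and in LL-MG against MG 3. Of all genes 21.2%, 8.31%, 12.2% and 7.98% were lower in these comparisons. Mcm5 (chr8:75109468-75128439) had 46.4, 52.5 and 45.2 CPM in LL-MG, 51.6, 50.6 and 51.5 CPM in LL-MDM, 52.7, 76.6 and 62.2 CPM in MG and 71.1, 62.9 and 64.8 CPM in MDM. The lipid-laden libraries lay below those without lipid load, although LL-MG library 2 nearly reached MG library 1. It was lower in LL-MDM than in MDM (-0.38 ± 0.11, edgeR adjusted p = 0.0174) and in LL-MG than in MG (-0.44 ± 0.12, edgeR adjusted p = 0.0186). The first call was lost without LL-MDM library 2 or 3 or MDM library 1 (edgeR adjusted p 0.0668 to 0.0977) and with the gene span alone (0.0503), and the second without LL-MG library 1 or 3 or MG library 2 (edgeR adjusted p 0.0707 to 0.151), with -0.14 without MG libraries 2 and 3.

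Rrm1, the large subunit of ribonucleotide reductase, had 23.8, 25.6 and 23.5 CPM in LL-MG, 36.1, 28.6 and 38.1 CPM in LL-MDM, 34.0, 35.8 and 33.0 CPM in MG and 36.8, 36.5 and 43.0 CPM in MDM. LL-MG lay below every other group. It was lower in LL-MG than in LL-MDM (-0.45 ± 0.15, edgeR adjusted p = 0.0341) and than in MG (-0.50 ± 0.14, edgeR adjusted p = 0.0207). The first call was lost without LL-MG library 1, 2 or 3 or LL-MDM library 1 or 3 (edgeR adjusted p 0.0515 to 0.171), with thinning (edgeR adjusted p = 0.109) and by DESeq2 and limma-voom (adjusted p 0.0590 and 0.130), and the second without LL-MG library 1 or 3 or MG library 2 (edgeR adjusted p 0.0671 to 0.0721). Without MG libraries 2 and 3 together the second value was -0.49 (edgeR adjusted p = 0.485). Of the counts at Rrm1, 98.6% are shared with a neighbouring gene. Mcm7 was lower in LL-MG than in MG (-0.33 ± 0.10, edgeR adjusted p = 0.0248), a call lost without any LL-MG library or without MG library 2 or 3 (edgeR adjusted p 0.0548 to 0.108), with -0.07 without both MG libraries. It was also lost with thinning (-0.31, edgeR adjusted p = 0.0985), and all its regions are shared. Mcm2, Mcm3, Mcm4, Mcm6 and the thymidylate synthase Tyms passed in none of the 4 comparisons. Pcna had log2 fold changes of 0.19, 0.19, -0.06 and -0.06 in the 4 comparisons and passed in none. All counts at Mcm4 and Pcna, 97.9% at Mcm2 and 86.8% at Mcm6 are shared with neighbouring genes, so these values are not of those genes alone.

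Of the 14 genes of G2 and mitosis, 2 were lower in MG against MDM, 1 was higher and 1 lower in LL-MG against LL-MDM, 3 were lower in LL-MDM against MDM, and 1 was higher and 1 lower in LL-MG against MG. Of these genes 14.3% were called in each lineage contrast, against 41.0% of all genes in MG against MDM and 20.3% in LL-MG against LL-MDM. With lipid load 23.8% of all genes were called in LL-MDM against MDM and 18.3% in LL-MG against MG. Mki67 (chr7:135689784-135716450), which encodes the proliferation antigen Ki-67, had the strongest locus difference of the 37 genes in MG against MDM. It had 73.1, 72.1 and 79.7 CPM in LL-MG, 116, 91.2 and 106 CPM in LL-MDM, 58.4, 57.8 and 55.9 CPM in MG and 96.2, 88.3 and 104 CPM in MDM. The microglial libraries lay below the MDM libraries in both lipid states, and LL-MG lay above MG. The log2 fold change was -0.74 ± 0.09 in MG against MDM (edgeR adjusted p = 9.85e-07), -0.43 ± 0.10 in LL-MG against LL-MDM (0.00378), 0.09 ± 0.09 in LL-MDM against MDM (0.521) and 0.39 ± 0.10 in LL-MG against MG (0.0151). The last call was lost without LL-MG library 3 or MG library 3 (edgeR adjusted p 0.0803 and 0.0519) and without MG libraries 2 and 3 together (0.36). With regions of 1 gene only it was 0.33 (edgeR adjusted p = 0.0517), and with thinning 0.71 (edgeR adjusted p = 0.00302). The LL-MG against LL-MDM call was lost with thinning (-0.30, edgeR adjusted p = 0.120).

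The Mki67 difference lay mostly away from its start. The region over the start, chr7:135715654-135716782, held 69.5% of the counts of the locus. It averaged 64.9 CPM in LL-MG, 66.5 CPM in LL-MDM, 52.5 CPM in MG and 66.4 CPM in MDM. Its log2 fold change was -0.01 in LL-MG against LL-MDM (edgeR adjusted p = 0.977) and -0.32 ± 0.13 in MG against MDM (edgeR adjusted p = 0.0355, lost without MG library 1 or 3 or MDM library 3 at 0.0532 to 0.123). A region centred 10317 bases into the gene, chr7:135705859-135706264, had 0.432, 0.449 and 2.08 CPM in LL-MG, 7.62, 6.52 and 5.89 CPM in LL-MDM, 2.83, 2.29 and 1.40 CPM in MG and 11.1, 9.92 and 10.9 CPM in MDM. Its microglial libraries lay below all MDM libraries, with log2 fold changes of -2.57 ± 0.45 in LL-MG against LL-MDM (edgeR adjusted p = 6.19e-05) and -2.31 ± 0.29 in MG against MDM (edgeR adjusted p = 3.98e-08).

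A further region of Mki67, chr7:135699344-135699692, was highest in LL-MDM. It had 2.59, 2.25 and 3.47 CPM in LL-MG, 20.3, 10.8 and 14.1 CPM in LL-MDM, 2.13, 2.13 and 3.03 CPM in MG and 6.42, 5.35 and 5.88 CPM in MDM. No LL-MDM library overlapped another group. The log2 fold change was -2.27 ± 0.33 in LL-MG against LL-MDM (edgeR adjusted p = 4.40e-06) and 1.22 in LL-MDM against MDM (edgeR adjusted p = 0.000139). The region at chr7:135710322-135710541 was likewise higher in LL-MDM than in MDM, by 1.47 (edgeR adjusted p = 0.000355). Of the 6 tested regions of Mki67, 5 were lower in each contrast of microglia with MDM and none higher, although in LL-MG against LL-MDM the call at chr7:135710322-135710541 was lost without any 1 lipid-laden library (edgeR adjusted p 0.0503 to 0.156).

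**Figure D4:**
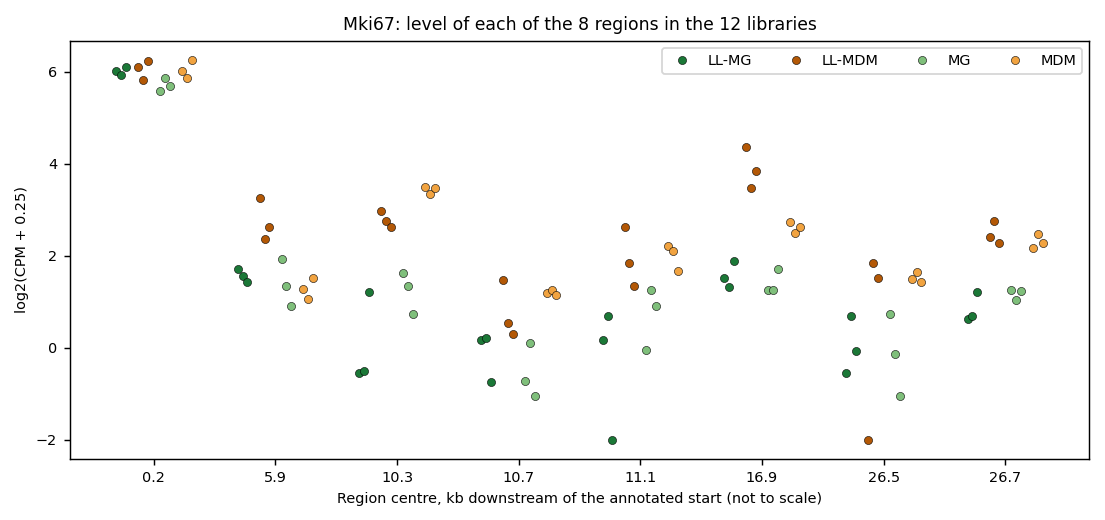
Level of each of the 8 regions of Mki67, as log2 of CPM plus 0.25 (y axis), in the 3 libraries of each group, ordered by distance of the region centre from the annotated start (x axis, not to scale). At the start region MG averages 52.5 CPM and the other groups 64.9 to 66.5 CPM, and at the region 10317 bases from the start every microglial library lies below every MDM library.

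Bub1, a kinase of the spindle checkpoint, had 21.3, 33.8 and 30.7 CPM in LL-MG, 35.2, 36.2 and 35.0 CPM in LL-MDM, 41.8, 32.0 and 39.5 CPM in MG and 58.1, 51.4 and 52.7 CPM in MDM. MDM lay above every other group. It was lower in MG than in MDM (-0.54 ± 0.12, edgeR adjusted p = 0.000777, or -0.37 and 0.0548 without MG libraries 2 and 3, and -0.28 and 0.108 with the gene span alone) and in LL-MDM than in MDM (-0.60 ± 0.12, edgeR adjusted p = 0.00146). Top2a, the topoisomerase that untangles replicated DNA, had 31.0, 35.2 and 39.0 CPM in LL-MG, 40.2, 41.6 and 42.8 CPM in LL-MDM, 38.1, 55.3 and 48.3 CPM in MG and 59.4, 53.6 and 52.0 CPM in MDM. LL-MDM lay below MDM, whereas LL-MG overlapped MG at MG library 1. It was lower in LL-MDM than in MDM (-0.40 ± 0.12, edgeR adjusted p = 0.0154, lost without LL-MDM library 2 or 3 or MDM library 1 at 0.0547 to 0.0865). The call was also lost with the gene span alone (-0.32, edgeR adjusted p = 0.0683) and with thinning (-0.22, edgeR adjusted p = 0.469). In LL-MG against MG it was -0.45 ± 0.13 (edgeR adjusted p = 0.0243), lost without LL-MG library 1 or 2 or MG library 2 or 3 (edgeR adjusted p 0.0616 to 0.158), with thinning (edgeR adjusted p = 0.0785) and without both MG libraries (-0.11).

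Aurkb, a kinase of the chromosomal passenger complex, had 92.7, 99.1 and 82.5 CPM in LL-MG, 74.6, 73.5 and 67.8 CPM in LL-MDM, 107, 100 and 106 CPM in MG and 99.2, 91.4 and 98.0 CPM in MDM. LL-MDM lay below every other group. It was higher in LL-MG than in LL-MDM (0.34 ± 0.09, edgeR adjusted p = 0.0108) and lower in LL-MDM than in MDM (-0.42 ± 0.08, edgeR adjusted p = 0.00109). Within the gene span alone, without the flanks, these values were -0.07 and 0.05, and neither passed. With regions of 1 gene only they were 0.02 (edgeR adjusted p = 0.934) and -0.26 (edgeR adjusted p = 0.0487), and with thinning neither call held (edgeR adjusted p 0.142 and 0.0955). The first call was also lost without LL-MG library 2 or LL-MDM library 3 (edgeR adjusted p 0.0709 and 0.0607). The mitotic kinase Cdk1 had a single region, over its start. It had 31.5, 19.2 and 25.5 CPM in LL-MG, 26.2, 28.1 and 24.7 CPM in LL-MDM, 26.5, 26.6 and 28.1 CPM in MG and 28.6, 23.2 and 24.3 CPM in MDM. All groups overlapped and it passed in no comparison. Nor did Ccna2, Ccnb1, Ccnb2, Cdc25b, Plk1, Aurka, Bub1b, Cdc20 or Birc5.

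Regions over the starts of cell cycle genes were shared by the groups more widely than their other regions. Of 33 start regions, 31 had been called as peaks in all 4 groups (93.9%), against 78.8% of the start regions of all genes. Of the 152 regions away from a start, 22.4% had been called in all 4, against 22.9% of all such regions. In MG against MDM, 7 of 32 tested start regions passed (21.9%, against 39.0% of all start regions), and in LL-MG against LL-MDM 2 of 32 did (6.25%, against 11.0%). In LL-MDM against MDM 3 of 32 passed (9.38%, against 16.2%). In LL-MG against MG 9 of 32 passed (28.1%, against 16.5%), and all 9 were lower in LL-MG, those of Aurka, Bub1, Cdkn1b, Mcm5, Mcm6, Rrm1, Top2a and both starts of Mcm7. The median over the 32 was -0.24, against -0.20 over all start regions, so that start regions of all genes were lower there too. At Top2a, whose window holds the most CCAAT boxes of those shown, the start region was -0.65 (edgeR adjusted p = 0.00904), or -0.18 without MG libraries 2 and 3 (edgeR adjusted p = 0.872). Without MG libraries 2 and 3 no member region was called in that comparison by edgeR, with 17 at an unadjusted p under 0.05.

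**Figure D5:**
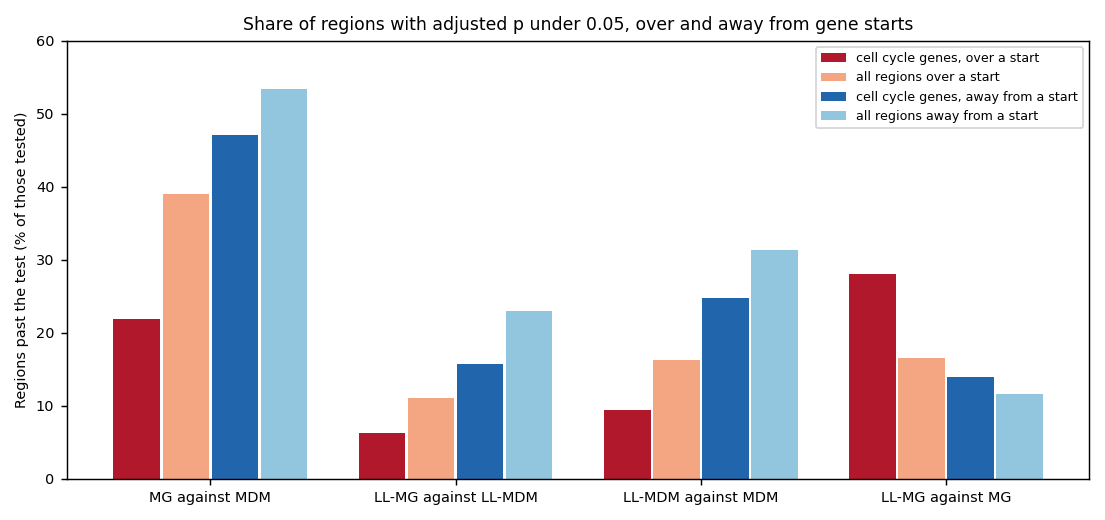
Percentage of tested regions with adjusted p under 0.05 (y axis) in each comparison (x axis), for regions of the cell cycle genes and for all regions, over and away from an annotated start. LL-MG against MG is the comparison in which the start regions of cell cycle genes pass more often than all start regions, 28.1% against 16.5%.

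Over all regions of the cell cycle genes, 73 of 193 tested passed in MG against MDM (37.8%, against 51.7% of all regions), 26 in LL-MG against LL-MDM (13.5%, against 21.5%), 40 in LL-MDM against MDM (20.7%, against 29.5%) and 35 in LL-MG against MG (18.1%, against 12.2%). The calls were 44 higher and 29 lower in MG against MDM (all regions 26.8% and 24.9%), 11 and 15 in LL-MG against LL-MDM (all regions 10.3% and 11.2%), 11 and 29 in LL-MDM against MDM (all regions 15.4% and 14.1%), and 2 and 33 in LL-MG against MG (all regions 4.22% and 8.01%). Single libraries moved these counts by over 1.5 times in the last 3 comparisons. The count in LL-MG against LL-MDM was 16, 14 and 10 without LL-MG libraries 1, 2 and 3, and 11 and 14 without LL-MDM libraries 2 and 3. In LL-MDM against MDM it was 18 and 22 without LL-MDM libraries 2 and 3 and 23 without MDM library 1. In LL-MG against MG it was 9, 10 and 8 without LL-MG libraries 1, 2 and 3, 59, 7 and 16 without MG libraries 1, 2 and 3, and 22 and 21 without MDM libraries 1 and 2.

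Of 93 further cell cycle genes, 16 were higher and 19 lower in MG against MDM, 6 higher and 7 lower in LL-MG against LL-MDM, 13 higher and 11 lower in LL-MDM against MDM, and 6 higher and 10 lower in LL-MG against MG. The shares called were 37.6%, 14%, 25.8% and 17.2%, against 41.0%, 20.3%, 23.8% and 18.3% of all genes. Of the 32 among them that act in origin licensing and replication, 8 were lower and 2 higher in MG against MDM (31.2% called, against 41.0% of all genes). Trp53, the p53 gene, was lower in MG than in MDM (-0.38 ± 0.07, edgeR adjusted p = 0.000220) and in LL-MDM than in MDM (-0.29 ± 0.07, edgeR adjusted p = 0.00634). Myc, a driver of growth and division, was higher in microglia under both lipid states. LL-MG had 95.3, 89.9 and 104 CPM against 45.1, 62.1 and 64.3 CPM in LL-MDM (0.70 ± 0.11, edgeR adjusted p = 0.000147). MG had 98.9, 83.3 and 91.8 CPM against 55.7, 60.6 and 66.6 CPM in MDM (0.58, edgeR adjusted p = 5.98e-05).

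The locus knocked out in these mice, Cdkn2a, had the strongest difference among those 93 genes. It had 101, 87.7 and 78.7 CPM in LL-MG, 26.2, 25.9 and 24.0 CPM in LL-MDM, 80.5, 63.4 and 64.1 CPM in MG and 16.2, 17.2 and 11.0 CPM in MDM. Microglial and MDM libraries were far apart in both lipid states. It was higher by 1.81 ± 0.15 in LL-MG against LL-MDM (edgeR adjusted p = 9.61e-08) and by 2.15 ± 0.13 in MG against MDM (edgeR adjusted p = 1.31e-10). Its counts lay over both annotated starts, at chr4:89282066-89282506 and chr4:89294535-89294960, and in the flank just past the end of the span, with a pair of thin regions in the other flank. No region was listed between the start of the gene span at 89274473 and position 89282066. The extent of the deletion is not given in the labels, so these counts do not check the knockout, and no wild-type library was analysed here. Cdkn2b, the neighbouring inhibitor gene, was also higher, by 1.37 ± 0.18 in LL-MG against LL-MDM and by 1.5 ± 0.15 in MG against MDM.

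Whether lipid load changed the genes differently in the 2 lineages was tested as an interaction, the difference in microglia minus that in MDM. It passed for 1 of 37 loci (2.70%, against 8.72% of all genes, 5.94% higher and 2.78% lower), Ccnd1 at 0.69 ± 0.21 (edgeR adjusted p = 0.0476). The Ccnd1 call was lost without any 1 of LL-MG libraries 1, 2 and 3, LL-MDM libraries 1, 2 and 3, MG library 3 or MDM libraries 1 and 2 (edgeR adjusted p 0.0838 to 0.125), and the value was 0.34 without MG libraries 2 and 3. It was also lost with both other scalings, without the low-count filter, with the gene span alone and with thinning (edgeR adjusted p 0.0516 to 0.475).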

How the data were processed

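Nuclei of sorted cells were tagmented with Tn5 and amplified in 2 rounds of PCR of 9 cycles, with fragments of 150 to 700 bp selected, per the labels' protocols. The mm10 build is named, and the tools named, with no role or order, are deepTools 3.5.1, Picard 2.12.0, SAMtools 1.10 and BWA 0.7.17-r1188, per the submitters' processing notes. How peaks were called, whether duplicates were removed and whether reads were shifted for Tn5 is not given in the sources used here. Whole-number counts per region for 12 libraries were used as deposited by the authors, and 0 columns were without a sample.

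Libraries were grouped by column name. Counts were summed over the regions overlapping each gene span or 5 kb either side (RefSeq, GRCm38.p6), so neighbouring genes can share counts. For 9 of the 37 genes all regions were shared. Loci and, separately, regions were fitted by edgeR 4.0.16 under R 4.3.3 (filterByExpr, TMM scaling, glmQLFit robust, glmQLFTest) in 1 model of the 4 groups, with Benjamini-Hochberg adjustment over all 15552 genes or 77737 regions and a threshold of 0.05. CPM values use TMM-scaled totals, of locus counts for loci and of region counts for regions, so the levels of loci and regions have different denominators. The total of locus counts leaves out regions assigned to no gene and holds shared regions once per gene. The SE is the log2 fold change over the root of its F value. The locus fit was run on simulated counts with the same spread for every gene and group, unlike these libraries. The region fit was not tested on simulated data. Alternatives were DESeq2 1.42.0, limma-voom (limma 3.58.1), other scalings, thinning to the smallest total, no low-count filter, gene spans without flanks, unshared regions, groups by title, a block of library numbers and leaving out libraries. For single genes the title groups, the missing filter and the joint removal of MG libraries 2 and 3 were chosen after seeing the data.

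The genes, gene lists and tests were chosen with earlier results of these data known. Named genes were a fixed set of 13 and, per comparison, up to 6 called genes in each direction by p. Counts do not separate PCR copies from fragments, so precision was taken from the spread between libraries. At the smallest total 1 CPM is about 1 count.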

Additional observations from a re-analysis of the deposited data

Results flagged for a closer look

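The lipid-load difference at Ccnd1 in microglia exceeded that in MDM by 0.69 ± 0.21 on the log2 scale, by edgeR's interaction test (adjusted p = 0.0476). In LL-MG against MG the difference was 0.47 ± 0.15, and in LL-MDM against MDM it was -0.22 ± 0.14 (edgeR adjusted p = 0.285). The call was lost in 15 of 22 alternatives other than the title groups, and the value was 0.34 without MG libraries 2 and 3 (edgeR adjusted p = 0.222).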

How the results depend on the processing

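Called loci numbered 7 in MG against MDM, 6 between the lipid-laden lineages, 9 for lipid load in MDM, 9 for lipid load in microglia and 1 for the interaction, the order used below. With groups by title they were 0, 0, 1, 1 and 0. Thinning to the smallest total gave 2, 5 and 4 in the 3 comparisons after MG against MDM. Without MG libraries 2 and 3, LL-MDM against MDM had 14, LL-MG against MG 0 and the interaction 0. The interaction also had 0 with RLE scaling, total counts, no filter and gene spans alone (edgeR, 2 to 3 loci at an unadjusted p under 0.05). Leaving out 1 library gave 5 to 12, 3 to 6, 4 to 12, 1 to 11 and 0 to 2. Called regions were 73, 26, 40 and 35 in the first 4 comparisons. By title they were 0, 0, 12 and 8, and thinned they were 15, 8, 5 and 6. Without MG libraries 2 and 3 they were 47 in MG against MDM, 45 in LL-MG against LL-MDM and 0 in LL-MG against MG. DESeq2 called 16 in LL-MG against LL-MDM and 20 in LL-MG against MG, where limma-voom called 20. Leaving out 1 library gave 50 to 88, 10 to 36, 18 to 52 and 7 to 59. Apart from the lower depth of thinning and the fewer libraries left, the cause was not tested.

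The library numbers run 1 to 4, 5 to 8 and 9 to 12, each set with a library of every group. No pairing was seen in deviations from the group means. Their median correlation was -0.0232 within a set (n = 18 pairs) and 0.00181 across sets (n = 36 pairs). With so few libraries per group, this cannot exclude that a set shares an animal. With a replicate block the locus counts were 7, 6, 10, 9 and 1 and the region counts 68, 25, 38 and 27.

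Signs reversed by title at Mki67 (0.07 in MG against MDM, 0.17 in LL-MG against LL-MDM, and, for Mki67 LL-MG against MG, -0.55 with edgeR adjusted p = 0.0372), Cdk4 (-0.03), Cdk6 (-0.13 and -0.05 in the 2 lineage contrasts) and Ccnd1 (-0.07 in LL-MG against LL-MDM). They also reversed at Aurkb (-0.18 in LL-MG against LL-MDM, 0.21 in LL-MDM against MDM), Ccnd2 (0.03 in LL-MDM against MDM, 0.20 in LL-MG against MG), Mcm5 (0.03) and Mcm7 (0.10), the last pair in LL-MG against MG. With gene spans alone Aurkb reversed to -0.07 and 0.05. In the other alternatives no called gene reversed. Outside the title groups, calls held in every alternative run for Mki67, Cdk4, E2f2 and Cdkn1b in MG against MDM, Cdk6 and Ccnd1 in LL-MG against LL-MDM, and Bub1 and Cdkn1b in LL-MDM against MDM.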
